A study of Bos taurus with 12 samples.

Results

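The 4 bovine miRNA hairpins bta-mir-6536-2, bta-mir-2382, bta-mir-2482 and bta-mir-584-7 were picked from the deposited counts because sperm collected when the bulls were 10 months old appeared to differ from sperm of the same bulls at 12 or 16 months. They are 4 of 5481 reference sequences and 4 of the 797 entries named as bta-mir hairpins. Small RNA was sequenced from spermatozoa of the same 4 Holstein Friesian bulls, first at 10, then at 12 and last at 16 months, ages that the study places before, around and after puberty. There were 12 libraries, 1 for each bull at each age. All bulls were untreated, each served as its own control, and each library came from the pooled straws of 1 bull, so the bulls are the replicates and no value reaches beyond these 4 animals. Because the values at 10 months chose the 4 hairpins, their differences between 10 and 12 months and between 10 and 16 months are given below as a description, with no p-value. The difference between 12 and 16 months is described in the same way, because the levels at 12 and 16 months were part of the choice. The choice named no numerical threshold, so no value just outside it can be given.

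A miRNA gene is first copied into a primary transcript, from which the enzyme Drosha cuts a hairpin and Dicer then cuts a short duplex. One strand of that duplex, the mature miRNA, guides an Argonaute protein to messenger RNAs that pair with its seed and lowers their translation or stability. Several hairpins can give the same mature miRNA, and a number at the end of the name, as in bta-mir-584-7, then marks the copy of the gene. Mature sperm are largely silent in transcription, and the small RNA they carry comes from spermatogenesis and from vesicles met in the epididymis. A count here is a read assigned to the listed hairpin, and it does not tell whether the molecule was a processed miRNA or another fragment of the same stretch.

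In the RefSeq gene table of assembly ARS-UCD2.0, 12 of the 12 hairpins and numbered copies described here had an entry. The build behind the counts is not given in the sources used here, so the table was used only for names and neighbours. MIR6536-2 lies on chromosome 9 and overlaps REV3L, which encodes the catalytic subunit of the DNA polymerase zeta that copies damaged templates. The other copy, MIR6536-1, overlaps MIR6536-2 in the same place. MIR2382 lies on chromosome 25 and overlaps PGP, which encodes phosphoglycolate phosphatase, and the miRNA nearest to MIR2382 is MIR1842. MIR584-7 lies on chromosome 29 and overlaps no other gene of the table, while 5 of the 7 other copies of mir-584 overlap a protein-coding gene, each on another chromosome. The table gives no strand, so whether a hairpin and the gene it overlaps are read in the same direction is not known here.

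Total counts ranged from 1914389 to 5119360 per library and the hairpins held 59866 to 166125 of them. Hairpins took 2.43% to 7.66% of the counts at 10 months, 1.55% to 2.89% at 12 months and 2.24% to 4.40% at 16 months. The most abundant transcript, ENSBTAT00000060546.1, took 8.93% to 14.2% of the counts of bulls 1 to 3 at 10 months and 40.1% in bull 4 at that age, 32.4% to 44.97% of all 4 libraries at 12 months and 10.3% to 32.2% at 16 months. In this share bull 4 at 10 months stood apart from its own age and lay within the range at 12 months, and in bulls 1 to 3 the transcript took more of the counts at 12 than at 10 months. Its part in the levels of the 4 hairpins was not tested. Levels are given as CPM, library-scaled counts after TMM normalization (normalized CPM), with factors from 0.754 to 1.54. With library totals as the scale, all sequences together shifted, to a median of 0.52 (log2) at 10 vs 12 months and of -0.44 at 12 vs 16 months. Of the miRNAs fixed as germ cell markers (bta-mir-34b, bta-mir-34c, bta-mir-449a, bta-mir-449b, bta-mir-449c and bta-mir-202), 6 of 6 were detected and none was at 0 in all libraries, and their summed level was 29.1 to 38.5 normalized CPM at 10 months, 20.7 to 44.6 at 12 months and 21.3 to 35.8 at 16 months.

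The 4 hairpins fell into 2 that were high and 2 that were low at 10 months. bta-mir-6536-2 and bta-mir-2382 had their highest mean at 10 months and their lowest at 16 months, whereas bta-mir-584-7 and bta-mir-2482 had their lowest mean at 10 months and their highest at 12 months. None of the 4 separated the ages fully, because the 4 libraries at 10 months overlapped with those at 12 and at 16 months for each hairpin. Over all sequences tested, 1.08% had the 4 libraries at 10 months all above and 0.649% all below those at 16 months, and 1.21% and 1.42% did so against 12 months. The lowest count among the 48 values was 32, for bta-mir-2482 in bull 3 at 10 months, with a 95% exact Poisson interval from 21.9 to 45.2 that covers counting error only.

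**Figure D1:**
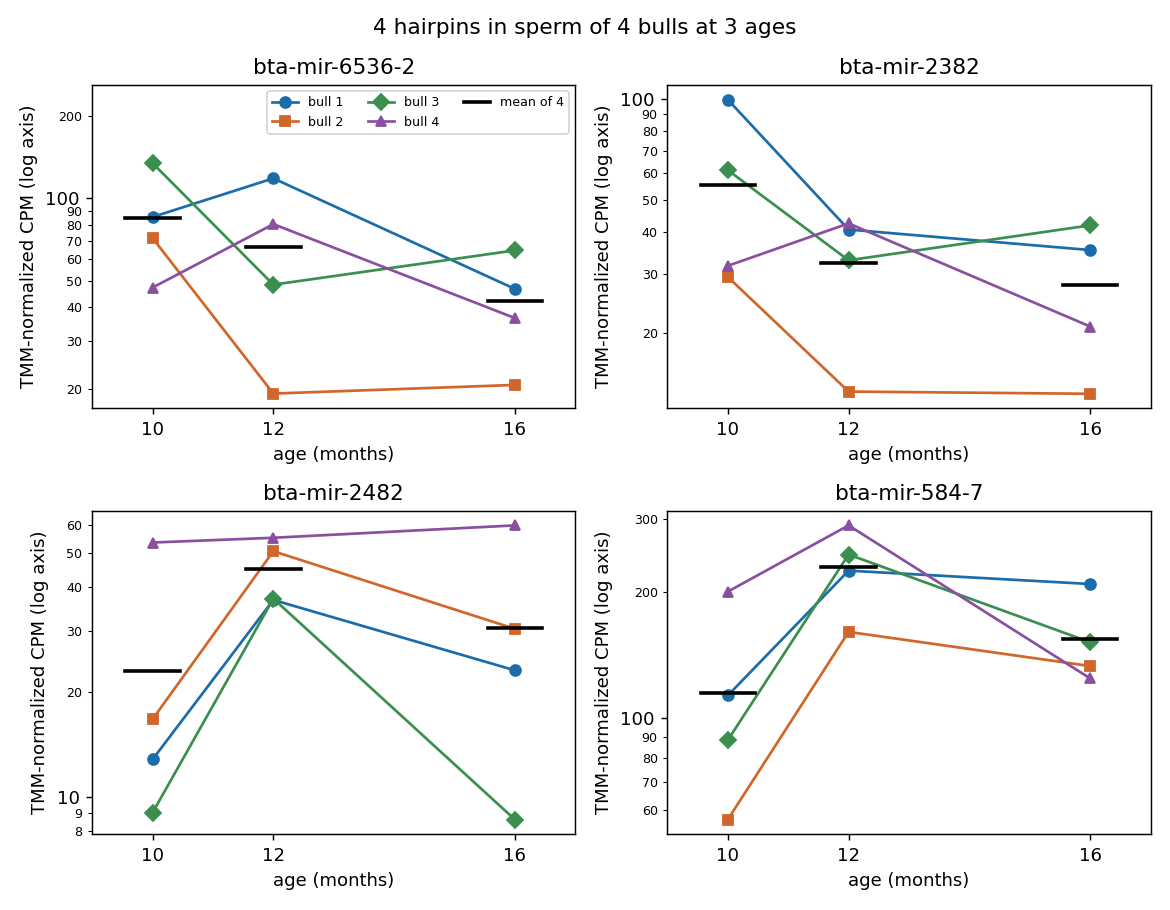
Normalized CPM (TMM scaling, log axis) of the 4 hairpins against age in months, with 1 line per bull and a black bar for the mean of the 4 bulls. bta-mir-6536-2 and bta-mir-2382 have their highest mean at 10 months (84.6 and 55.5), and bta-mir-2482 and bta-mir-584-7 peak at 12 months (44.9 and 231).

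bta-mir-6536-2 had 85.4, 71.5, 134 and 47.1 normalized CPM in bulls 1 to 4 at 10 months. It had 118, 19.3, 48.3 and 80.4 in the same bulls at 12 months, and 46.6, 20.7, 64.5 and 36.4 at 16 months. Every bull thus had more of it at 10 than at 16 months, but against 12 months bulls 2 and 3 were higher at 10 months and bulls 1 and 4 were lower. The mean over bulls (± SD, n = 4) went from 84.6 ± 36.8 normalized CPM at 10 months to 66.6 ± 42.6 at 12 and 42.1 ± 18.3 at 16 months. Each SD is the spread between bulls and does not measure the change within a bull. The fitted log2 fold change was 1.00 (standard error 0.22) at 10 vs 16 months and 0.50 (standard error 0.32) at 10 vs 12 months. Leaving out 1 bull at a time, the value at 10 vs 16 months ran from 0.75 without bull 2 to 1.20 without bull 4. The value at 10 vs 12 months rested on bulls 2 and 3, since it was 0.055 without bull 2 and 0.14 without bull 3, against 0.88 without bull 1 and 0.93 without bull 4. Per bull, the log2 level at 10 months minus that at 12 months ran from -0.77 in bull 4 to 1.86 in bull 2, with an SD of 1.33 over bulls.

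bta-mir-2382 had 99.4, 29.5, 61.3 and 31.8 normalized CPM in bulls 1 to 4 at 10 months. The values were 40.8, 13.4, 33.0 and 42.6 at 12 months and 35.4, 13.2, 42.0 and 21.0 at 16 months. All 4 bulls had more of it at 10 than at 16 months, and all but bull 4 had more at 10 than at 12 months, although the ages overlapped between bulls. The mean over bulls (± SD, n = 4) went from 55.5 ± 32.7 normalized CPM at 10 months to 32.4 ± 13.3 at 12 and 27.9 ± 13.1 at 16 months. Each SD is between bulls and does not measure the change within a bull. In normalized CPM, 3 of 4 bulls were higher at 12 than at 16 months. The fitted log2 fold change was 0.93 (standard error 0.21) at 10 vs 16 months and 0.72 (standard error 0.24) at 10 vs 12 months. With each bull left out, the first ran from 0.75 to 1.10 and the second from 0.52 to 1.10, and without bull 4 they were 1.03 and 1.10.

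bta-mir-2482 had 12.8, 16.7, 9.04 and 53.6 normalized CPM in bulls 1 to 4 at 10 months. The values were 36.7, 50.6, 37.0 and 55.3 at 12 months and 23.1, 30.4, 8.64 and 60.0 at 16 months. Bull 4 held a level of 53.6 to 60.0 at each age, while the other bulls were lowest at 10 months, or in bull 3 about as low at 10 as at 16 months. The mean over bulls (± SD, n = 4) went from 23.0 ± 20.6 normalized CPM at 10 months to 44.9 ± 9.48 at 12 and 30.5 ± 21.6 at 16 months, with wide overlap between 10 and 16 months. The fitted log2 fold change was -1.24 (standard error 0.25) at 10 vs 12 months, lower in 4 of 4 bulls, and -0.48 (standard error 0.22) at 10 vs 16 months, lower in 3 of 4. With each bull left out, the first ran from -1.70 without bull 4 to -1.02 without bull 3, and the second from -0.62 without bull 4 to -0.35 without bull 2. The log2 level at 10 months minus that at 12 months was -0.04 in bull 4, against -1.48, -1.57 and -1.98 in bulls 1 to 3.

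bta-mir-584-7 had 113, 57.0, 88.4 and 201 normalized CPM in bulls 1 to 4 at 10 months. The values were 225, 161, 246 and 289 at 12 months and 209, 133, 152 and 124 at 16 months. Each bull peaked at 12 months, and bulls 1 to 3 were lowest at 10 months whereas bull 4 was lowest at 16 months. The mean over bulls (± SD, n = 4) went from 115 ± 61.7 normalized CPM at 10 months to 231 ± 53.6 at 12 and 155 ± 38.2 at 16 months. The fitted log2 fold change was -1.12 (standard error 0.22) at 10 vs 12 months, lower in 4 of 4 bulls, and -0.58 (standard error 0.24) at 10 vs 16 months, lower in 3 of 4. With each bull left out, the first ran from -1.32 without bull 4 to -0.997 without bull 2. The second was -0.99 without bull 4 but -0.44 without bull 1, -0.37 without bull 2 and -0.48 without bull 3, and with the counts of the 8 copies summed it was -0.28. The log2 level at 10 months minus that at 16 months was 0.69 in bull 4 against -0.89, -1.22 and -0.78 in bulls 1 to 3.

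The study's limits for a call were a 1.5-fold change and an unadjusted p of 0.05. At 10 vs 16 months, 3.70% of the 4625 sequences tested lay within both limits in the edgeR fit with the bull as a block. Of all sequences, 2.40% did so as higher and 1.30% as lower at 10 months. At 10 vs 12 months, 6.99% of the 4632 sequences did, 3.22% as higher and 3.78% as lower at 10 months. Whether the 4 hairpins met the limits in these contrasts is not given, because the values at 10 months chose them. A rise or fall in 4 of 4 bulls was seen for 2 of the 4 hairpins in each contrast, and nothing is read from it. Among all sequences, 8.00% were higher and 4.37% lower in every bull at 10 than at 16 months, and 7.08% were higher and 7.62% lower in every bull at 10 than at 12 months. The directions of the 4 fitted log2 fold changes at 10 months held under library totals, at 1.07 for bta-mir-6536-2, 1.28 for bta-mir-2382, -0.75 for bta-mir-2482 and -0.59 for bta-mir-584-7 at 10 vs 12 months, which are set against a median of 0.52 for all sequences under that scaling.

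The comparison of 12 with 16 months asks whether the hairpins also differ between the later ages. It was not the contrast that chose them, but it is not independent of the choice. A hairpin picked as high against 16 months or as low against 12 months is more likely to be higher at 12 than at 16 months, so the values below carry no p-value and nothing is read from their common sign. The 4 fitted log2 fold changes were above 0, with a median of 0.52, where the median over all 4615 sequences was 2.6e-05. For 0 of the 4 did the libraries at 12 months lie apart from those at 16 months, where 1.02% of all sequences had them all above and 0.607% all below.

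The widest of the 4 was bta-mir-2482, with a log2 fold change of 0.77 (standard error 0.25) and a higher level at 12 months in 3 of 4 bulls. Bull 3 had the widest gap, with 37.0 normalized CPM at 12 months and 8.64 at 16 months, and the value was 0.40 without bull 3, 1.13 without bull 4, 0.56 without the bull as a block and 0.35 under library totals.

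For bta-mir-584-7 the fitted value was 0.56 on the log2 scale (standard error 0.25), a fold change of 1.47. All 4 bulls had more of it at 12 months, a direction that 5.81% of all sequences had in every bull, while 4.90% were lower in every bull. The value ran from 0.36 without bull 4 to 0.71 without bull 1, and it was 0.35 with the counts of the 8 copies summed and 0.11 under library totals. For bta-mir-6536-2 it was 0.49 (standard error 0.26), higher in bulls 1 and 4 and lower in bulls 2 and 3. It depended on the bulls, with 0.19 without bull 1 and 0.29 without bull 4 against 0.66 without bull 2 and 0.83 without bull 3, and was 0.051 under library totals. For bta-mir-2382 it was 0.20 (standard error 0.24), and -0.05 without bull 4.

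The table holds 7 other numbered copies of bta-mir-584 and 1 of bta-mir-6536, and no other copy of bta-mir-2382 or bta-mir-2482. How reads that match several copies were assigned is not given in the sources used here, so counts of near-identical copies are uncertain. Divided by hairpin length, which RefSeq gives as 67 to 95 bases, the level over the 12 libraries was 249 normalized CPM per 100 bases for bta-mir-584-7. The next copy, bta-mir-584-4, had 48.6 and the lowest, bta-mir-584-3, had 3.11. Whether reads scale with hairpin length is not known here, and dividing by it favours short hairpins such as bta-mir-584-7, with 67 bases. Per length, bta-mir-584-7 ranked 23 among the 779 detected hairpins with a RefSeq length, and bta-mir-6536-2 ranked 63, bta-mir-2382 101 and bta-mir-2482 120, all by the mean over the 3 ages. The order of the last pair, both of 77 bases, came from 10 months, since at 12 and 16 months bta-mir-2482 had the higher mean. The copy bta-mir-6536-1 had 4.46 normalized CPM per 100 bases against 80.5 for bta-mir-6536-2.

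With TMM and the bull as a block, none of the 7 other copies of bta-mir-584 met the fold change and p limits in any of the 3 contrasts, the third of which had 3.25% of all sequences within them, 2.19% as higher and 1.06% as lower at 12 than at 16 months. Their summed level was 96.9 ± 10.1 normalized CPM at 10 months (mean ± SD, n = 4 bulls), 92.6 ± 5.97 at 12 and 94.9 ± 24.1 at 16 months. The SD is the spread between bulls and does not measure the change within a bull. In the contrast of 10 with 12 months, 3 of the 7 had a log2 fold change below 0 and 4 above 0, with a median of 0.02, and at 10 vs 16 months 4 were below and 3 above, with a median of -0.04. Under library totals the copies bta-mir-584-2, bta-mir-584-4 and bta-mir-584-6 moved above 0 at 10 vs 12 months. At 10 months against either later age, bta-mir-584-5 had fold changes of the opposite sign to those of bta-mir-584-7, with levels of 19.1 ± 5.07 normalized CPM at 10 months (mean ± SD, n = 4 bulls), 13.7 ± 5.25 at 12 and 12.4 ± 2.44 at 16 months. The fitted log2 change of this entry was 0.58 (standard error 0.21, edgeR adjusted p = 0.518) at 10 vs 16 months and 0.52 (standard error 0.21, edgeR adjusted p = 0.314) at 10 vs 12 months, higher at 10 months in 4 of 4 bulls both times. At 10 vs 16 months this fold change of 1.49 lay at the limit of 1.5, and bta-mir-584-5 met both limits with no replicate block (log2 fold change 0.592), with all 12 libraries in 1 fit (0.590), with filterByExpr (0.596), under library totals (0.68), without bull 1 (0.590) and without bull 2 (0.73). It also met them at 10 vs 12 months under library totals (1.07). Among the other copies, bta-mir-584-1 met them at 10 vs 12 months under library totals (1.01), without bull 2 (0.68) and without bull 4 (0.67), and at 12 vs 16 months under library totals (-0.90) and without bull 4 (-0.74). The copy bta-mir-584-8 met them at 12 vs 16 months under library totals (-0.64).

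For bta-mir-6536-1, counts were low, from 5 to 28 per library. It had 3.68 ± 3.07 normalized CPM at 10 months (mean ± SD, n = 4 bulls), 3.96 ± 0.550 at 12 and 3.19 ± 1.54 at 16 months. The fitted log2 change of this entry was -0.01 (standard error 0.42, edgeR adjusted p = 0.998) at 10 vs 16 months, where bta-mir-6536-2 had 1.00, and it ran from -0.79 without bull 4 to 0.54 without bull 2. The sign of this small value depended on the bull left out, and under library totals it was above 0.

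Only 1 of the 5 mature entries with the same numbers was detected. bta-miR-2382-3p, the mature strand from the 3′ arm of bta-mir-2382, had 6 to 35 counts per library, and the entries bta-miR-2382-5p, bta-miR-2482, bta-miR-584 and bta-miR-6536 had 0 counts in each of the 12 libraries. A count of 0 allows up to 3 counts per library, for counting error only, and reads of these mature strands may have been assigned to the hairpin entries. bta-miR-2382-3p had 4.79 ± 1.32 normalized CPM at 10 months (mean ± SD, n = 4 bulls), 3.91 ± 1.15 at 12 and 4.64 ± 1.86 at 16 months. The fitted log2 change of this entry was 0.06 (standard error 0.33, edgeR adjusted p = 0.998) at 10 vs 16 months and 0.31 (standard error 0.33, edgeR adjusted p = 0.856) at 10 vs 12 months. Under library totals the value at 10 vs 12 months was 0.84 and met the fold change and p limits. With TMM it ran from 0.097 without bull 2 to 0.60 without bull 1. The mature entry was not shown to follow the hairpin at this depth. Of these 9 entries other than the 4 hairpins, 0 had an edgeR adjusted p under 0.05 in each of the 3 contrasts, whereas before adjustment 1, 1 and 0 were at or under 0.05 in edgeR (10 vs 16, 10 vs 12 and 12 vs 16 months), the 1 being bta-mir-584-5, and 0, 0 and 0 in DESeq2. Among all sequences, 0.0649%, 0.518% and 0.0867% had an edgeR adjusted p under 0.05 in these contrasts.

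**Figure D2:**
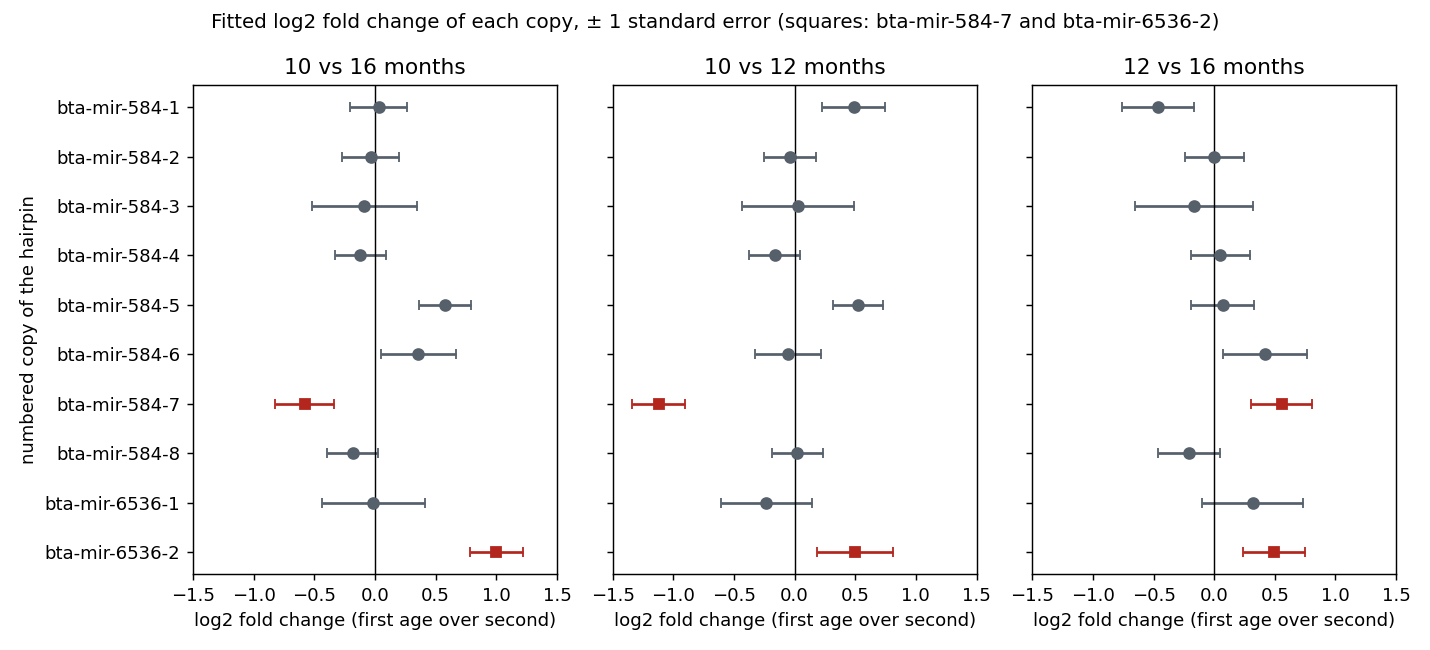
Fitted log2 fold change (first age over second) of the 8 copies of bta-mir-584 and the 2 copies of bta-mir-6536 in the 3 contrasts, with bars of 1 standard error; squares mark bta-mir-584-7 and bta-mir-6536-2. At 10 vs 12 months bta-mir-584-7 stands at -1.12, and the 7 other copies lie between -0.16 and 0.52.

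A share of the copies within 1 library does not depend on how libraries are scaled. bta-mir-584-7 held 54.2%, 37.2%, 44.5% and 70.1% of the counts of the 8 bta-mir-584 copies in bulls 1 to 4 at 10 months. The shares were 71.5%, 64.4%, 73.2% and 74.0% at 12 months and 72.6%, 58.7%, 54.0% and 61.7% at 16 months. In bulls 1 to 3 the share was lowest at 10 months, and in bull 4 it was lowest at 16 months. The 95% Wilson interval of the lowest share, in bull 2 at 10 months, ran from 34.0% to 40.6% of 806 counts, and covers counting error only. The mean share was 51.5% ± 14.2 at 10 months (± SD, n = 4 bulls), 70.8% ± 4.37 at 12 and 61.7% ± 7.88 at 16 months. It was lower at 10 than at 12 months in 4 of 4 bulls and lower at 10 than at 16 months in 3 of 4. The share at 12 months exceeded that at 16 months in 3 of 4 bulls, by 9.06 points on average (SD 8.68). With each bull left out, this difference ran from 5.69 points without bull 3 to 12.4 without bull 1.

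bta-mir-6536-2 held 96.9%, 97.2%, 98.8% and 85.1% of the counts of its 2 copies in bulls 1 to 4 at 10 months. The shares were 96.4%, 83.6%, 93.7% and 94.9% at 12 months and 94.4%, 79.3%, 96.0% and 95.2% at 16 months. The low share moved between animals, with bull 4 lowest at 10 months and bull 2 lowest at the later ages. At 12 months the share exceeded that at 16 months by 0.917 points on average, in 2 of 4 bulls. Without bull 2 the mean difference in share turned in each contrast, from 3.29 to -1.56 points at 10 minus 16 months, from 2.37 to -1.36 at 10 minus 12 months and from 0.917 to -0.202 at 12 minus 16 months.

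**Figure D3:**
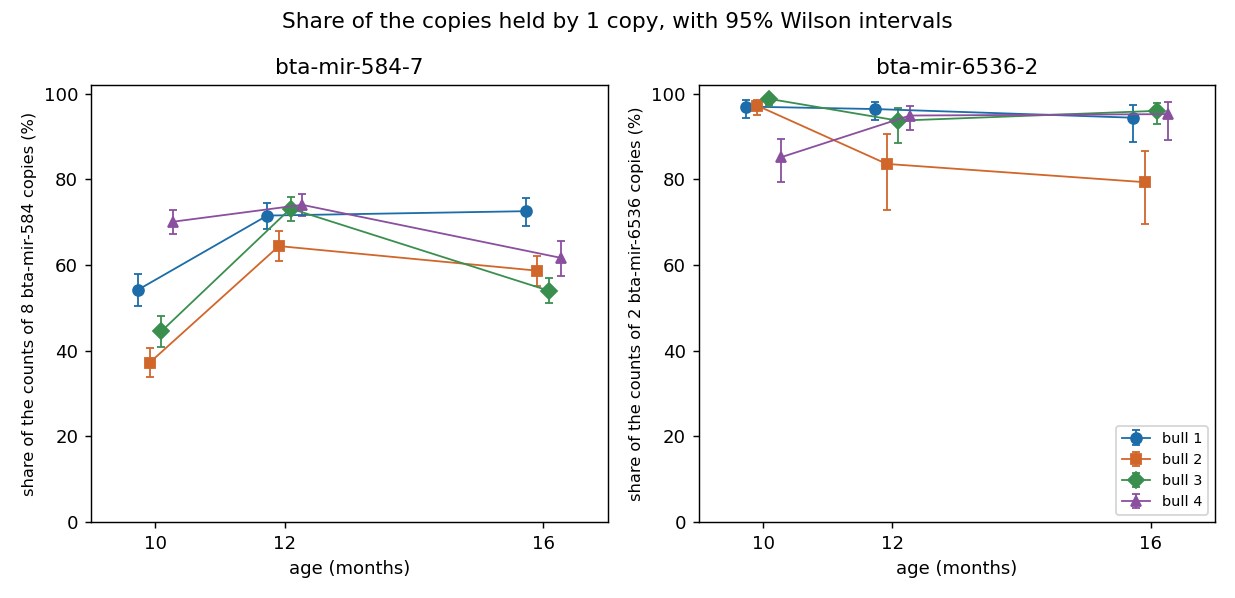
Share of the counts of all numbered copies held by bta-mir-584-7 (left, 8 copies) and bta-mir-6536-2 (right, 2 copies) against age in months, with 1 line per bull, 95% Wilson intervals and points of the same age set apart for reading. For bta-mir-584-7, bulls 1 to 3 rise from 37.2% to 54.2% at 10 months to 64.4% to 73.2% at 12 months, and bull 4 lies between 61.7% and 74.0% at all ages.

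Copies of a hairpin differed more for bta-mir-584 than for most other hairpins with several copies. Over the 34 hairpins with at least 2 numbered copies at a mean of 10 counts or more, the distance between the highest and the lowest log2 fold change of the copies had a median of 0.31 at 10 vs 12 months, 0.24 at 10 vs 16 months and 0.38 at 12 vs 16 months. For bta-mir-584, with 7 copies above that mean, it was 1.65, 1.16 and 1.02, ranking 1, 2 and 1 of 34. A family with more copies has more chances of a wide range, and bta-mir-584-7 was chosen for its difference at 10 months, so the ranks are a description.

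The share of all hairpin counts gives another view that leaves out the abundant transcript. bta-mir-584-7 took 0.352% ± 0.233 (SD, n = 4 bulls) of the hairpin counts at 10 months, 0.793% ± 0.118 at 12 months and 0.535% ± 0.115 at 16 months, and in bull 4 it was 0.702% at 10 months. bta-mir-2382 took 0.151% ± 0.0422 at 10 months, 0.107% ± 0.0279 at 12 months and 0.0903% ± 0.0233 at 16 months. The other 2 hairpins had the same order of the ages on this scale as in normalized CPM, but for bta-mir-2482 only 3 bulls had a lower share at 10 months than at 12 months, against all 4 in normalized CPM. For bta-mir-6536-2 the mean share was 0.0411 points higher at 10 than at 12 months, and it turned to -0.0116 without bull 2 and -0.0105 without bull 3. Between 12 and 16 months the share was higher at 12 months in 4 of 4 bulls for bta-mir-584-7 and for bta-mir-2382 and in 3 of 4 for bta-mir-6536-2 and bta-mir-2482.

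Among 651 hairpins with a mean of at least 10 counts, the ones most like each of the 4 were found by Pearson's r of log2 normalized CPM over the 12 libraries, after the mean of each bull was subtracted. The libraries share bulls and scaling, so r is a description. bta-mir-6536-2 was most like bta-mir-30e (r = 0.912), bta-mir-200b (0.881) and bta-mir-223 (0.879), the last known from myeloid blood cells and bta-mir-200b from epithelium. bta-mir-2382 was most like bta-mir-429 (0.962), of the same epithelial family as bta-mir-200b, bta-mir-1343 (0.956) and bta-mir-133b (0.951), known from striated muscle. bta-mir-2482 was most like bta-mir-193b (0.967), bta-mir-2285aa (0.897) and bta-mir-376a (0.874), and bta-mir-584-7 was most like bta-mir-2436 (0.883), bta-mir-2893 (0.881) and bta-mir-1777b (0.859). Among the 4 themselves, r was 0.750 between bta-mir-6536-2 and bta-mir-2382, 0.765 between bta-mir-2482 and bta-mir-584-7, and -0.705 to -0.497 across these pairs. The 4 were chosen for high or low values at 10 months, which favours these signs, so nothing is read from them. The hairpins next to bta-mir-2482 in pattern moved by different amounts, with a log2 fold change at 10 vs 12 months of -0.32 (standard error 0.22) for bta-mir-193b and -1.18 (standard error 0.22) for bta-mir-2285aa.

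**Figure D4:**
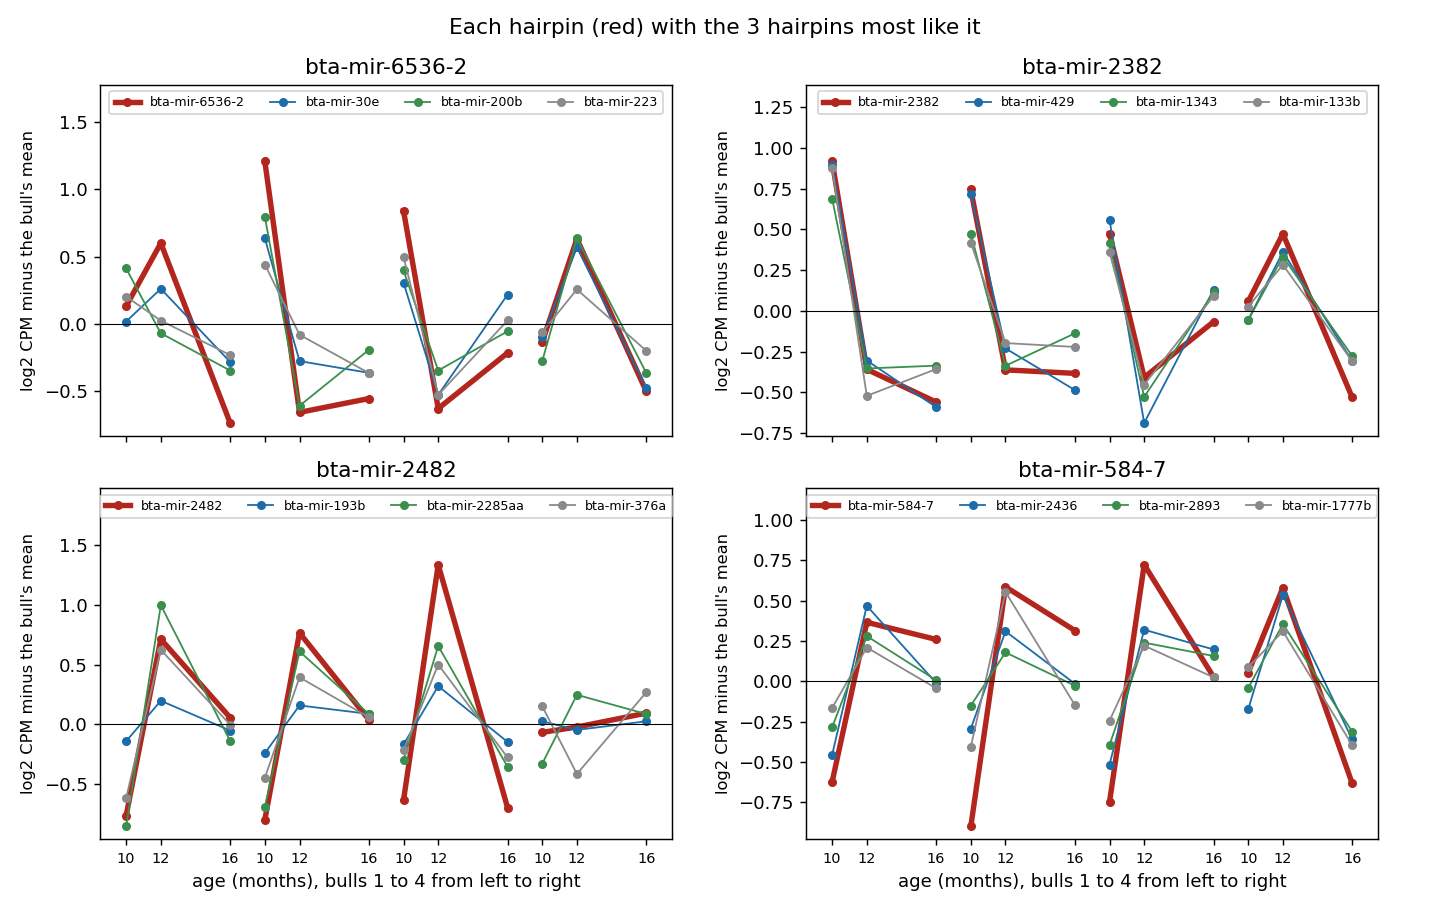
Log2 normalized CPM minus the mean of the same bull, for each of the 4 hairpins (red) and the 3 hairpins most like it, by age in months within bulls 1 to 4. The curves of bta-mir-2382 and bta-mir-429 (r = 0.962) run close together in each bull, while bta-mir-2482 moves over a wider range than bta-mir-193b (r = 0.967).

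Before extraction the study washed the sperm in a buffer that lyses somatic cells, and markers of other cell types were still detected. The epithelial list (bta-mir-200a, bta-mir-200b, bta-mir-200c, bta-mir-141, bta-mir-429 and bta-mir-205, with bta-mir-203 absent from the table) had a summed level of 198 to 517 normalized CPM at 10 months, 144 to 289 at 12 months and 117 to 265 at 16 months, and 2 of 6, bta-mir-200b and bta-mir-429, met the fold change and p limits as higher at 10 than at 16 months, where 2.40% of all sequences did. The striated muscle list (bta-mir-1, bta-mir-206, bta-mir-133a and bta-mir-133b, with 6 entries in the table) ranged from 464 to 3166 at 10 months, 310 to 3244 at 12 months and 295 to 2154 at 16 months, and 3 of 6, all copies of bta-mir-133a or bta-mir-133b, met the limits as higher at 10 than at 16 months. The red blood cell list (bta-mir-451, bta-mir-144 and bta-mir-486) ranged from 188 to 930, 67.8 to 284 and 67.6 to 425 at the 3 ages, with bta-mir-144 as the 1 of 3 that met the limits at 10 vs 16 months. The white blood cell list (bta-mir-223, bta-mir-142, bta-mir-150 and bta-mir-155) ranged from 137 to 282, 121 to 213 and 112 to 301, with 0 of 4 meeting them. Against 12 months, 1 epithelial, 2 muscle, 1 red and 0 white blood cell entries met the limits as higher at 10 months, where 3.22% of all sequences did, and at 12 vs 16 months no entry of these 4 lists met them. At 10 vs 12 months, 1 red blood cell and 1 muscle entry had an edgeR adjusted p under 0.05, where 0.518% of all sequences did. No other listed marker reached it in any contrast. With filterByExpr and without the replicate block, 0 of all sequences reached it at 10 vs 12 months. Of the germ cell list, bta-mir-202 was higher and bta-mir-34b lower at 10 than at 12 months, bta-mir-34b was higher at 12 than at 16 months, and 0 of 6 met the limits at 10 vs 16 months. No entry of these lists was at 0 in all libraries. The part of these markers in the levels of bta-mir-6536-2 and bta-mir-2382, which also were highest at 10 months, was not tested. In bulk RNA, more cells of a type, more RNA per cell and RNA carried by the sperm themselves cannot be told apart.

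bta-mir-1842, whose gene neighbours that of bta-mir-2382 and which was named after its values were seen, had no change that passed the test. It had 9.35 ± 2.16 normalized CPM at 10 months (mean ± SD, n = 4 bulls), 7.93 ± 3.09 at 12 and 9.25 ± 1.83 at 16 months. The fitted log2 change of this entry was -0.0036 (standard error 0.25, edgeR adjusted p = 0.998) at 10 vs 16 months, higher in 2 of 4 bulls, and 0.27 (standard error 0.24, edgeR adjusted p = 0.802) at 10 vs 12 months. With each bull left out, the value at 10 vs 12 months ran from 0.049 to 0.41.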

How the data were processed

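Trimmomatic 0.36 and Bowtie 1.2.2 (versions per the submitters' processing notes) were used by the authors for trimming and for alignment to a made reference of bovine small RNAs, and the deposited values are raw counts per reference sequence. The genome build, the mismatches allowed and the treatment of reads with several matches are not given in the sources used here. Normalized values and the authors' own comparisons (fold changes and p-values) were deposited too and were not used.

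Each contrast was fitted on its 8 libraries in edgeR 4.0.16 (R 4.3.3, limma 3.58.1) with TMM, glmQLFit and glmQLFTest, the bull as a block, and every sequence with at least 1 count, and p-values were adjusted by Benjamini-Hochberg over all of them. The standard error is the log2 fold change over the square root of F. Normalized CPM used TMM over 12 libraries, with 0.5 added before logs. DESeq2 1.42.0, numpy 2.4.6, pandas 2.3.3 and scipy 1.17.1 (Python 3.11.15) served the alternatives and intervals. The comparison of 12 with 16 months had been set out as a test of the 4 hairpins (edgeR, and exact permutation for shares), but their p-values are not given because the choice used levels at both ages. The fitting code was also run on simulated counts, and the outcome is not reported here. Same-bull libraries, paired because they are the same animal, deviated together with correlations of 0.164 to 0.491 (12 pairs, 3442 sequences), against -0.453 to 0.205 for different bulls.

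The 4 hairpins, the marker lists and the tests were chosen with earlier results of these data known. The hairpins, the other entries with their numbers, and the 3 most alike hairpins each were named by rule, and a part of the rule on shared seeds was not applied because miRNA sequences were not used here. Alternatives were DESeq2 size factors, library totals, filterByExpr, no block, DESeq2, 12 libraries in 1 fit, copies summed, hairpins only, and each bull left out. No molecular identifiers were used, so intervals cover counting error only. The genomic neighbourhood of bta-mir-2482 is not reported here.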

Additional observations from a re-analysis of the deposited data

Results flagged for a closer look

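In 4 of 45 groups of 4 libraries, the lowest or highest library lay apart from the other 3 by more of the range of the group than the 95% critical value of Dixon's test allows, and chance gives about 1 in 20. bta-mir-6536-1 at 10 months was highest in bull 4, at 8.24 normalized CPM against 1.70 to 2.69 in the others. The share of bta-mir-6536-2 among its 2 copies at 10 months was lowest in the same library, at 85.1% against 96.9% to 98.8%. At 16 months that share was lowest in bull 2, at 79.3% against 94.4% to 96.0%. bta-mir-584-5 at 12 months was lowest in bull 2, at 5.85 normalized CPM against 15.4 to 17.1.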

How the results depend on the processing

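At 10 vs 16 and 10 vs 12 months the fitted log2 fold changes of the 4 hairpins kept their direction under 8 alternatives and with each bull left out, although that of bta-mir-6536-2 at 10 vs 12 months came down to 0.055 without bull 2. At 10 vs 12 months the log2 fold change of bta-mir-584-7 was -0.59 under library totals and -0.62 with copies summed. Under library totals, log2 fold changes that turned were, at 10 vs 16 months, bta-mir-584-2 (0.064), bta-mir-584-3 (0.016) and bta-mir-6536-1 (0.053). At 10 vs 12 months they were bta-mir-584-2 (0.49), bta-mir-584-4 (0.37), bta-mir-584-6 (0.46) and bta-mir-6536-1 (0.20), and at 12 vs 16 months bta-mir-2382 (-0.24), bta-mir-584-2 (-0.44), bta-mir-584-4 (-0.38), bta-mir-584-5 (-0.38), bta-mir-584-6 (-0.016) and bta-mir-6536-1 (-0.12). These shifts go with the median of all sequences under that scaling, 0.08, 0.52 and -0.44 in the 3 contrasts. At 10 vs 12 months bta-mir-584-5 was then at 1.07, and its adjusted p fell below 0.05 under that scaling. At 10 vs 16 months bta-mir-6536-1 was also at 0.0026 with filterByExpr, 0.13 with no replicate block and 0.029 with 12 libraries in 1 fit. With hairpins only, bta-mir-584-3 was at -0.033 and bta-mir-584-8 at -0.029 at 10 vs 12 months. With no replicate block, bta-mir-584-2 was at -0.026 and bta-mir-584-4 at -0.034 at 12 vs 16 months, and bta-mir-2482 was at 0.56.

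The sequences meeting the fold change and p limits at 10 vs 16, 10 vs 12 and 12 vs 16 months numbered 171, 324 and 150 with the block. Without the replicate block they were 97, 240 and 135, in DESeq2 93, 183 and 49, with hairpins only, where fewer sequences were tested, 43, 76 and 26, and under library totals 211, 1214 and 810. Calls then split into 180 higher and 31 lower, 1202 and 12, and 9 and 801, against 111 and 60, 149 and 175, and 101 and 49 with TMM. Adjusted p under 0.05 was reached by 3, 24 and 4 sequences in edgeR with the block, by 0, 0 and 0 with filterByExpr and without the block, by 9, 182 and 0 under library totals, by 1, 13 and 0 with 12 libraries in 1 fit, by 2, 26 and 0 in DESeq2 and by 3, 0 and 0 with hairpins only. The cause was not tested.

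With each bull left out, calls ranged from 150 to 290, 275 to 509 and 142 to 206, and adjusted calls from 1 to 47, 9 to 288 and 1 to 15, the highest adjusted counts without bull 4. Among the log2 fold changes of the hairpins, copies and mature entry, these turned in sign with a bull left out. At 10 vs 16 months bta-miR-2382-3p ranged from -0.17 to 0.30, bta-mir-584-1 from -0.052 to 0.19, bta-mir-584-2 from -0.23 to 0.18, bta-mir-584-3 from -0.31 to 0.20, bta-mir-584-4 from -0.30 to 0.061 and bta-mir-6536-1 from -0.79 to 0.54. At 10 vs 12 months bta-mir-584-2 ranged from -0.22 to 0.10, bta-mir-584-3 from -0.35 to 0.46, bta-mir-584-4 from -0.27 to 0.045, bta-mir-584-6 from -0.20 to 0.14 and bta-mir-584-8 from -0.13 to 0.16. At 12 vs 16 months bta-mir-2382 ranged from -0.049 to 0.42, bta-miR-2382-3p from -0.39 to 0.043, bta-mir-584-2 from -0.15 to 0.074, bta-mir-584-3 from -0.34 to 0.031, bta-mir-584-4 from -0.13 to 0.32, bta-mir-584-5 from -0.098 to 0.33 and bta-mir-584-8 from -0.32 to 0.051. The neighbour bta-mir-1842 ranged from -0.26 to 0.25 at 10 vs 16 months. The difference in the share of bta-mir-6536-2 at 12 vs 16 months ranged from -0.20 to 1.99 points. Copies with few counts, such as bta-mir-584-3 and bta-mir-6536-1, limit what can be seen at this depth.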
